A study of Mus musculus with 20 samples.

Results

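Adrenergic receptors are the G protein-coupled receptors through which adrenaline and noradrenaline act on blood vessels and fat, and 8 of their genes are described here in mouse aorta. They are the alpha-1 genes Adra1a, Adra1b and Adra1d, the alpha-2 genes Adra2a, Adra2b and Adra2c, and the beta genes Adrb1 and Adrb3. The 8 were taken by gene name from a table of 55421 genes, and all 8 were found. RNA was sequenced from the whole aorta of 20 C57BL/6 mice, 1 library per mouse, in 4 groups of 5. The groups were the knockout (Ppara△SMC) at 28 months, Pparafl/fl at 28 months, the knockout at 2 months and Pparafl/fl at 2 months. All 20 mice carried the floxed allele of Ppara, which encodes PPARα, a nuclear receptor for fatty acids, and the label of the knockout names deletion in smooth muscle (SMC). The labels name neither the Cre driver nor the deleted exon, and the wall that was sequenced holds other cells besides smooth muscle.

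In the arterial wall, alpha-1 receptors couple to Gq and phospholipase C in smooth muscle and raise calcium, which contracts the vessel. Alpha-2 receptors couple to Gi and lower cyclic AMP, and those on sympathetic nerve endings restrain the release of noradrenaline. Beta receptors couple to Gs and adenylyl cyclase. The beta-3 receptor is best known in rodents from white and brown adipocytes, where it drives lipolysis and heat production.

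Total gene counts lay between 50046288 and 79385413 per library. Levels are CPM, counts per 1000000 after scaling of all 20 libraries with edgeR, and levels of different genes are compared only as CPM per kb of exon. A gene is called where edgeR's quasi-likelihood F test, with Benjamini-Hochberg adjustment over all genes tested, gave an adjusted p under 0.05. Ppara itself was 47.7 to 91.9 CPM in the knockout and 26.2 to 90.1 CPM in Pparafl/fl at 28 months, and 69.5 to 138 CPM in the knockout and 89.0 to 196 CPM in Pparafl/fl at 2 months, and it was not called in any of the 4 comparisons of single groups. Myh11, which marks smooth muscle, was at least 59.9 CPM in every library. Whole aorta also carried fat, since Plin1, an adipocyte marker, was at least 138 CPM in every library. Airway epithelium markers, summed over 15 genes, reached 6738 CPM in the knockout and 5055 CPM in Pparafl/fl at 28 months, and 197 CPM in the knockout and 25.9 CPM in Pparafl/fl at 2 months. In bulk RNA, fewer cells of a type and less RNA per cell cannot be told apart.

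The genes differ in how their coding sequence is cut, and this matters for the counts below. Adra1a, Adra1b, Adra1d and Adrb3 have an intron inside the coding sequence, and the other 4 are coded in 1 exon. The bases that meet across that intron in the spliced transcript are shown for the 4 genes, because this joint is what the single-exon members lack. Each line gives 30 coding bases before the joint in lower case and 30 after it in capitals, from GENCODE M21 transcripts on GRCm38, 5′ to 3′ on the strand of the gene.
Adra1a: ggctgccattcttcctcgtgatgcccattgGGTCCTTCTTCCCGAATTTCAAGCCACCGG
Adra1b: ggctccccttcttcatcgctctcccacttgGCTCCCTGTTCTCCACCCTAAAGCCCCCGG
Adra1d: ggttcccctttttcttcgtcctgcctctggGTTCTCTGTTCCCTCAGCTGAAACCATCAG
Adrb3: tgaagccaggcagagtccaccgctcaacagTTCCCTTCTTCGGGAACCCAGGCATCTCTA
The 3 alpha-1 genes are cut at the same place in a shared stretch. Of the 60 bases, Adra1a and Adra1b share 41, Adra1b and Adra1d share 40, and Adra1a and Adra1d share 38, while Adrb3 shares 19 to 23 with each of them. The introns removed there run on GRCm38 over chr14:66638461-66727445 in Adra1a (plus strand, 88985 bases), chr11:43776460-43835139 in Adra1b (minus strand, 58680 bases), chr2:131546541-131561075 in Adra1d (minus strand, 14535 bases) and chr8:27226897-27227256 in Adrb3 (minus strand, 360 bases).

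RefSeq promoter windows on GRCm38.p6, from 250 bases before to 50 after the annotated start, were given for Adra1b, Adra2a, Adra2b, Adra2c and Adrb1. They were searched on both strands for the letters AGGTCANAGGTCA, the repeat that PPARα binds together with the retinoid X receptor, and for the single site AGGTCA. None of the 6 windows of these 5 genes held the repeat, which 0.0396% of all 32851 windows held. The single site was found in Adra2c alone, against 16.3% of all windows, and the GC box CCGCCC in Adra1b, Adra2a, Adra2b and Adrb1, against 35.7% of all windows. A match describes the letters and is no binding site by itself. The windows of Adra2b (chr2:127362929-127363228, plus strand, 68.0% GC) and Adrb1 (chr19:56721867-56722166, plus strand, 72.3% GC) are shown as examples without the PPARα letters, from a gene at 0 in 9 libraries and from the least counted gene, with the GC box in capitals.
Adra2b: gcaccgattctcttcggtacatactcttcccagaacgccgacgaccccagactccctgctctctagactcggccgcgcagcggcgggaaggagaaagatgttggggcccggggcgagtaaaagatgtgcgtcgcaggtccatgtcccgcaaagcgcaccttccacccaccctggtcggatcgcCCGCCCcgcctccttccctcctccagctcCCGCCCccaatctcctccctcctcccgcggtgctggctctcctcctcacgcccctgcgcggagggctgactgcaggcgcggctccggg
Adrb1: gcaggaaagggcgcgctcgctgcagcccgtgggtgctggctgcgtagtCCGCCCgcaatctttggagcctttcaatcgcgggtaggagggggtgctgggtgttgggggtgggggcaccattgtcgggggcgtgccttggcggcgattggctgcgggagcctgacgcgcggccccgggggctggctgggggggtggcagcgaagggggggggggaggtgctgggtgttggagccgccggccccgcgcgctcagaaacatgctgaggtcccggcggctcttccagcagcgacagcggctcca

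Among the receptor genes described here, Adrb3 was the most abundant per kb of exon in 19 of 20 libraries and Adra1a the next. Adrenergic receptor genes outside this list were not ranked. The exception was Pparafl/fl replicate 3 at 28 months, where Adra1a came first. Averaged over the 20 libraries, Adrb3 had 60.1 CPM per kb and Adra1a 7.41 CPM per kb. The other 6 genes averaged 1.14 CPM per kb for Adra2a, 0.853 for Adra2c, 0.775 for Adra2b, 0.464 for Adra1d, 0.388 for Adra1b and 0.0760 for Adrb1. Among the alpha-2 genes the spread between libraries was as large as their means, so their order is not resolved, and neither is that of Adra1b and Adra1d. Of the CPM per kb summed over the genes described here, Adrb3 averaged 66.8% in the knockout and 69.3% in Pparafl/fl at 28 months. At 2 months it averaged 86.0% in the knockout and 88.6% in Pparafl/fl. These sums include the alpha-2 genes, whose counts could not be read as levels, as given further on. The shares therefore describe the counts as deposited.

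**Figure D1:**
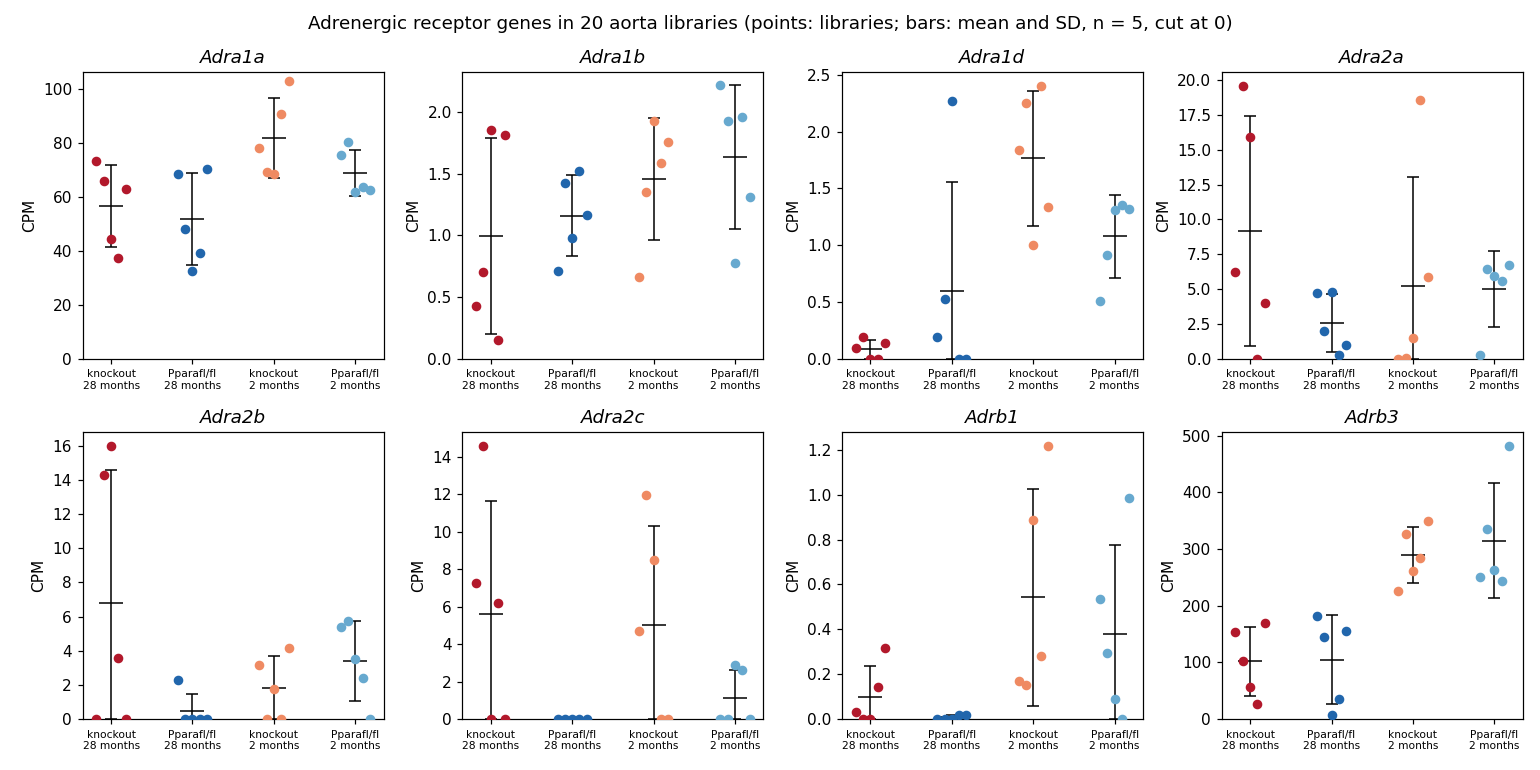
CPM (vertical axes, linear, a different range in each panel) of each of the 8 receptor genes in the knockout and Pparafl/fl at 28 months and the knockout and Pparafl/fl at 2 months. Points are the 5 libraries of a group and bars the mean and SD, cut at 0. Within each genotype, Adrb3 lies lower in all 5 libraries of 28 months than in any library of 2 months. That was so for 5.61% of 18033 genes in the knockout and 5.82% of 17862 in Pparafl/fl, among genes averaging at least 50 counts. Adra2b and Adra2c sit at 0 in 9 and in 12 of the 20 libraries.

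With age, 1 alpha-1 gene, Adra1d, was called lower in the knockout. Adrb3 was not called in either genotype alone, and the fit averaged over genotypes is given further on. Its aged libraries all lay below the young ones in both genotypes. That was so for 5.61% of 18033 genes in the knockout and 5.82% of 17862 in Pparafl/fl, among genes averaging at least 50 counts. Of the 7 receptor genes tested for age in the knockout, Adra1d was the only one called. In that comparison 2.59% of all genes tested were called lower, 1.87% higher and 4.46% in either direction. Of the 6 tested for age in Pparafl/fl, none was called, where 4.54% of all genes were, 2.48% lower and 2.06% higher. In Pparafl/fl 4775 genes of the whole table had an unadjusted p under 0.05, and Adrb3 was the 1 receptor gene among them. DESeq2 called none of the 6 for age in Pparafl/fl either. The median log2 fold change of the receptor genes tested was -0.53 in the knockout and -0.89 in Pparafl/fl, beside 0.06 in both for all genes. Over the 4 genes with an intron in the coding sequence alone it was -1.04 in the knockout and -0.66 in Pparafl/fl, so the order of the genotypes turned with the genes included. These comparisons take each genotype alone and share no library with each other.

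Adra1d encodes the alpha-1D receptor, which mediates contraction in the rodent aorta (ENSMUSG00000027335, chr2:131545850-131562283, minus strand, 2 exons). Its raw counts were 6, 12, 0, 0 and 9 in the knockout at 28 months, against 97, 118, 54, 155 and 82 in the knockout at 2 months. All 5 aged knockout libraries lay below all 5 young ones, which was so for 5.61% of 18033 genes with a mean of at least 50 counts. The mean was 0.0848 ± 0.0846 CPM at 28 months and 1.77 ± 0.597 CPM at 2 months (SD, n = 5 each), a log2 fold change of -4.38 ± 1.01 (SE) with an edgeR adjusted p of 0.0403. The call was close to the threshold, since leaving out any 1 of the 10 libraries gave an adjusted p between 0.0534 and 0.0893, with a log2 fold change between -4.90 and -4.04. Adra1d passed the filter on low counts through the young group, and its adjusted p was 0.0859 without the filter and 0.0569 in 1 fit of all 20 libraries. The authors' deposited table gave a signed fold of -21.2 and a p of 3.44e-07 for the same gene.

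In Pparafl/fl, Adra1d counts were 9, 30, 158, 0 and 0 at 28 months, against 37, 56, 74, 79 and 88 at 2 months. After scaling, 3 aged libraries were lower than every young one, replicate 2 at 0.522 CPM was level with the lowest young library at 0.509 CPM, and replicate 3 at 2.27 CPM was higher than all young ones. The log2 fold change was -0.83 ± 1.20 (SE) with an edgeR adjusted p of 0.722, and without replicate 3 it was -2.58 and the adjusted p 0.234, the lowest over the 10 libraries left out in turn, where the highest was 0.833. That library was also the one with the fewest Adrb3 counts. The test of the difference between the 2 age effects gave -3.52 ± 1.69 (SE) as a log2 difference and an edgeR adjusted p of 0.826, so the age effects were not shown to differ.

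Adra1a, the alpha-1A receptor, which contracts smaller arteries (ENSMUSG00000045875, chr14:66635251-66771168, plus strand), was far more counted. It was 73.2, 65.7, 44.3, 37.1 and 63.0 CPM in the knockout at 28 months, against 78.1, 69.1, 68.3, 90.5 and 102.7 CPM at 2 months. Of the aged libraries 4 lay below all young ones. The log2 fold change was -0.53 ± 0.21 (SE) with an edgeR adjusted p of 0.157. In Pparafl/fl Adra1a was 68.6, 48.0, 32.4, 39.1 and 70.4 CPM at 28 months, against 75.6, 80.1, 61.8, 63.4 and 62.3 CPM at 2 months. The 3 lowest aged libraries were below all young ones and the other 2 within their range, with a log2 fold change of -0.40 ± 0.22 (SE) with an edgeR adjusted p of 0.311.

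Adra1b, the alpha-1B receptor (ENSMUSG00000050541, chr11:43774606-43901210, minus strand), was counted in every library, with 14 to 161 counts. It was 0.154 to 1.85 CPM with a median of 0.707 in the knockout at 28 months, against 0.663 to 1.93 CPM with a median of 1.58 at 2 months. In Pparafl/fl it was 0.713 to 1.52 CPM with a median of 1.16 at 28 months, against 0.777 to 2.22 CPM with a median of 1.92 at 2 months. The groups overlapped in both genotypes. The log2 fold changes were -0.57 ± 0.62 (SE) in the knockout and -0.49 ± 0.36 (SE) in Pparafl/fl, with edgeR adjusted p of 0.634 and 0.450.

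Markers of several cell types moved with age beside the receptor genes. Of 25 contractile smooth muscle genes tested, 6 were called lower and none higher in the knockout, and 13 lower and 1 higher in Pparafl/fl. Their summed level was 1280 to 2811 CPM in the knockout at 28 months, against 2616 to 14745 CPM at 2 months, and 1774 to 3510 CPM in Pparafl/fl at 28 months, against 5978 to 11802 CPM at 2 months. All 25 genes had counts in every group. Of 16 fibroblast markers 8 were called lower in each genotype, with sums of 1539 to 2859 CPM in the knockout at 28 months, against 4774 to 11259 CPM at 2 months, and 1345 to 4060 CPM in Pparafl/fl at 28 months, against 7469 to 10815 CPM at 2 months. Of 16 skeletal muscle markers 2 were called higher in Pparafl/fl and none in the knockout, with sums of 682 to 6685 CPM in the knockout at 28 months, against 20.4 to 6643 CPM at 2 months, and 4183 to 32036 CPM in Pparafl/fl at 28 months, against 29.8 to 4092 CPM at 2 months. Of airway epithelium markers, 3 of 14 tested were called higher in the knockout and 9 of 11 tested in Pparafl/fl. Their sums were 20.3 to 6738 CPM in the knockout and 69.5 to 5055 CPM in Pparafl/fl at 28 months. At 2 months they were 15.9 to 197 CPM and 14.8 to 25.9 CPM. Of 13 cardiomyocyte markers tested in Pparafl/fl 4 were called higher, and of 12 in the knockout none. The part of these markers in the Adra1d result was not tested. Adra1a was set against no cell type's markers other than the contractile ones. At 28 months its lowest library in each genotype also had the lowest white adipocyte sum, 12958 CPM in the knockout and 17322 CPM in Pparafl/fl. At 2 months that held in neither genotype, and the part of fat in its values was not tested. Set against the contractile sum within each library, Adra1a was not lower with age. Per 1000 contractile marker counts, Adra1a had 38.6, 16.1, 11.6, 11.1 and 28.8 counts in Pparafl/fl at 28 months, against 6.40, 8.44, 9.64, 5.42 and 10.4 at 2 months. Every aged Pparafl/fl library was above every young one, a log2 difference of 1.26 with p = 0.00794 in the two-sided exact permutation test, the smallest that 5 against 5 allows, and 0.0317 after adjustment over the 12 ratio tests run. Adra1b behaved alike, with 0.425 per 1000 at 28 months and 0.176 per 1000 at 2 months as geometric means, a log2 difference of 1.27 and an adjusted exact permutation p of 0.0317. The contractile sum was itself lower in every aged Pparafl/fl library, at 1774 to 3510 CPM against 5978 to 11802 CPM. Such a ratio cannot tell more receptor counts from fewer marker counts.

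In the knockout the same ratio for Adra1a was 49.9, 34.2, 15.7, 29.0 and 49.002 per 1000 at 28 months, against 7.005, 22.8, 26.1, 22.2 and 6.96 at 2 months. Here 1 aged library, replicate 3, lay inside the young range. The log2 difference was 1.18, with an exact permutation p of 0.0714 and 0.171 after adjustment. For Adra1b it was 0.75, with an adjusted exact permutation p of 0.582. Adra1d had 0 counts in 4 aged libraries and got no such ratio. The plot of receptor levels beside marker sums shows the libraries behind these ratios.

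**Figure D2:**
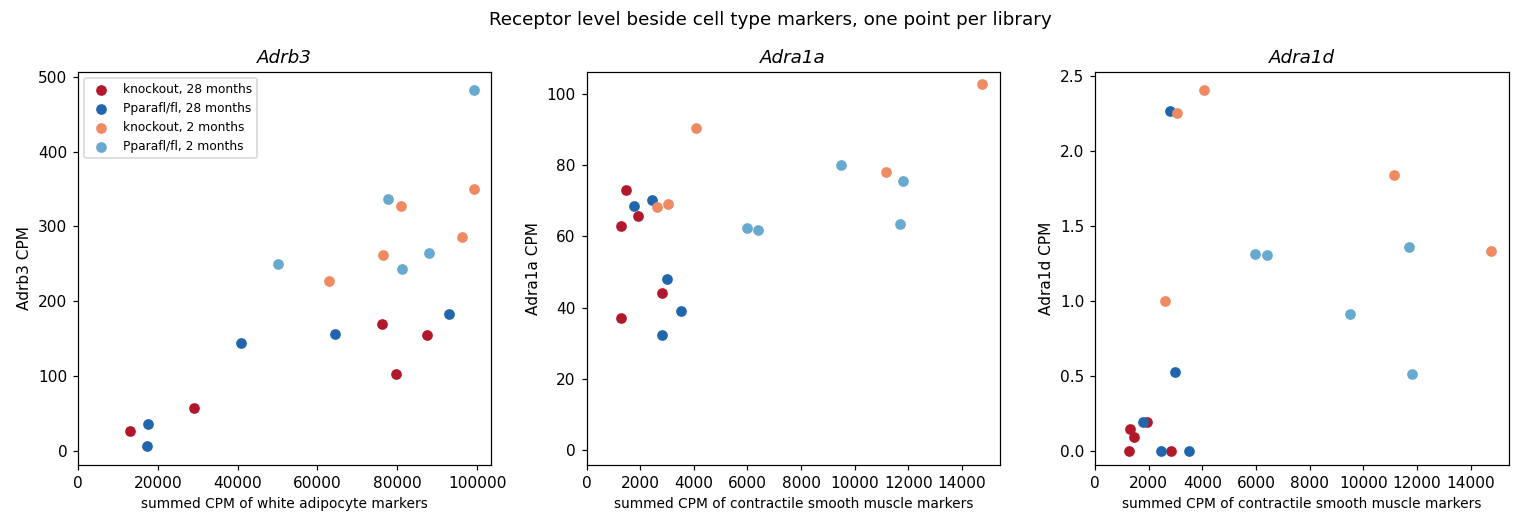
CPM of Adrb3, Adra1a and Adra1d (vertical axes) against the summed CPM of white adipocyte or contractile smooth muscle markers (horizontal axes), 1 point per library, colours for the 4 groups. Adrb3 lies at 6.40 to 182 CPM in the 28-month libraries and at 226 to 483 CPM in the 2-month libraries, over adipocyte sums that overlap between the ages, and Adra1a lies between 32.4 and 102.7 CPM over contractile sums from 1280 to 14745 CPM.

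Adrb3, the beta-3 receptor of adipocytes (ENSMUSG00000031489, chr8:27225776-27250616, minus strand), was 154, 102, 56.6, 26.1 and 170 CPM in the knockout at 28 months, against 226, 327, 262, 285 and 350 CPM at 2 months. In Pparafl/fl it was 182, 144, 6.40, 35.0 and 156 CPM at 28 months, against 250, 336, 264, 243 and 483 CPM at 2 months. In both genotypes all 5 aged libraries lay below all 5 young ones, which was so for 5.61% of 18033 genes with a mean of at least 50 counts in the knockout and for 5.82% of 17862 in Pparafl/fl. Within the 28-month groups the libraries themselves differed widely, with the lowest at 6.40 CPM and the highest at 182 CPM, both in Pparafl/fl.

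The group means of Adrb3 were 101.7 ± 61.5 CPM at 28 months and 290 ± 49.6 CPM at 2 months in the knockout (SD, n = 5 each), a log2 fold change of -1.52 ± 0.43 (SE). In Pparafl/fl they were 105 ± 78.7 CPM at 28 months and 315 ± 101 CPM at 2 months (SD, n = 5 each), a log2 fold change of -1.58 ± 0.69 (SE). The edgeR adjusted p was 0.0698 in the knockout and 0.205 in Pparafl/fl, so neither passed the threshold. With DESeq2 the knockout comparison had an adjusted p of 0.00736, and with edgeR and single libraries left out it had 0.0579 to 0.137. The 2 age effects differed by 0.08 ± 0.84 (SE) as a log2 difference.

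Adipocyte markers were measured in the same libraries. The summed level of 22 white adipocyte markers was 12958 to 87444 CPM in the knockout at 28 months, against 62949 to 99169 CPM at 2 months, and 17322 to 92925 CPM in Pparafl/fl at 28 months, against 50089 to 99281 CPM at 2 months. Of the 22, 5 were called lower in the knockout and 3 in Pparafl/fl, none higher, and all had counts in every group. Their part in the Adrb3 values was not tested beyond the ratios below. Of 15 brown adipocyte markers, 4 were called lower in the knockout and 2 in Pparafl/fl. Their sum was 1099 to 4472 CPM in the knockout at 28 months, against 2562 to 6537 CPM at 2 months, and 953 to 5207 CPM in Pparafl/fl at 28 months, against 3561 to 7763 CPM at 2 months.

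Per 1000 white adipocyte marker counts, Adrb3 had 1.76, 1.28, 1.95, 2.01 and 2.23 counts in the knockout at 28 months, against 3.59, 4.04, 3.43, 2.96 and 3.53 at 2 months. Every aged knockout library was below every young one, a log2 difference of -0.94 with an exact permutation p of 0.00794 and 0.0317 after adjustment. In Pparafl/fl the ratio was 1.96, 3.55, 0.369, 2.00 and 2.43 at 28 months, against 4.99, 4.33, 3.003, 2.999 and 4.86 at 2 months. Here replicate 2 at 28 months lay inside the young range, and the log2 difference of -1.25 had an exact permutation p of 0.0238 and 0.0714 after adjustment. The choice of marker mattered, since against Plin1 alone the knockout difference was -0.30 with an exact permutation p of 0.349, and against Fabp4 alone -0.53 with a p of 0.119.

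**Figure D3:**
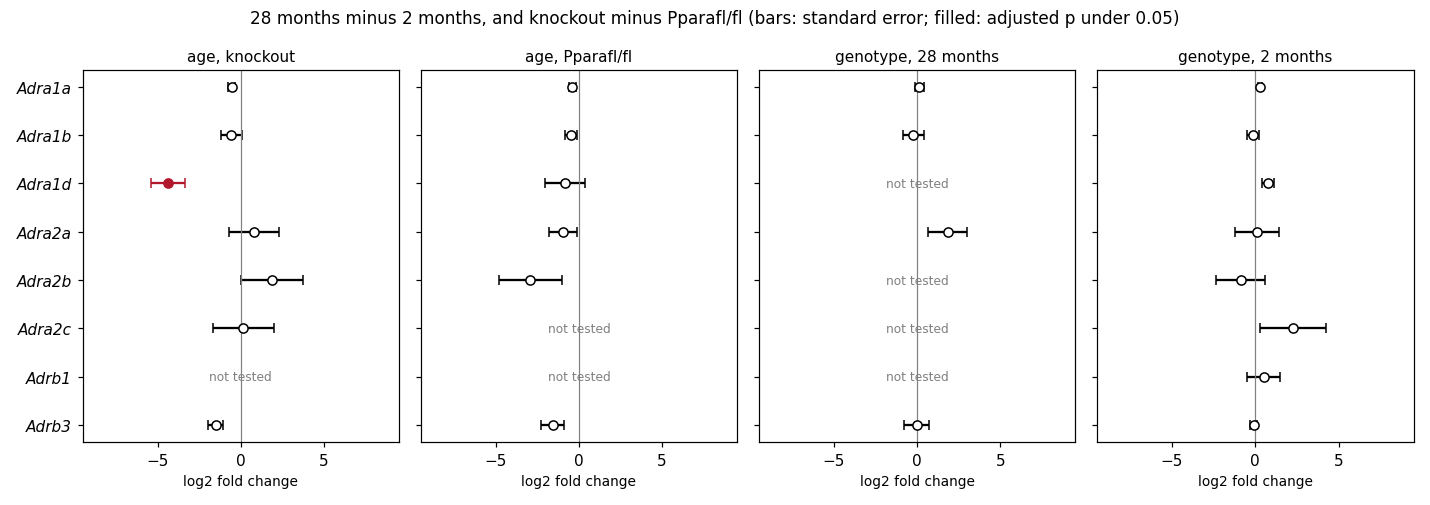
Log2 fold change (horizontal axis) of each receptor gene in 4 comparisons, 28 months minus 2 months in the knockout and in Pparafl/fl and knockout minus Pparafl/fl at 28 and at 2 months. Bars are standard errors and the filled point is the 1 called gene, Adra1d for age in the knockout at -4.38; genes that did not pass the filter on low counts are marked as not tested.

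Adrb1, the beta-1 receptor, known as the main beta receptor of heart muscle (ENSMUSG00000035283, chr19:56722199-56733113, plus strand), was near the limit of detection. Its counts were 2, 0, 0, 13 and 20 in the knockout at 28 months, 0, 0, 0, 1 and 1 in Pparafl/fl at 28 months, 9, 8, 48, 18 and 75 in the knockout at 2 months, and 39, 18, 5, 0 and 66 in Pparafl/fl at 2 months. It did not pass the filter in either age comparison. Summed over the libraries, Pparafl/fl had 2 counts at 28 months and 128 at 2 months, a ratio of 0.0171 after scaling, with an exact 95% binomial interval of 0.00205 to 0.0632 that covers counting error only. Between genotypes at 28 months, the knockout had 35 counts and Pparafl/fl 2, a ratio of 14.3 with an interval of 3.68 to 123. Without the filter, edgeR gave an adjusted p of 0.113 for age in Pparafl/fl and 0.571 for genotype at 28 months.

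One fit of all 20 libraries, added after the values were seen, averaged the age effect over both genotypes. It called 4 of the 8 receptor genes, all lower at 28 months, where 9.43% of all genes tested were called lower, 10.6% higher and 20.1% in either direction. They were Adrb1 with a log2 fold change of -3.92 (standard error 1.00, edgeR adjusted p 0.0105), Adrb3 with -1.55 (0.43, 0.0170), Adra1a with -0.47 (0.16, 0.0407) and Adra1d with -2.61 (0.87, 0.0419). Adrb3 and Adrb1 kept their call in each of the 20 fits that left out 1 library. Adra1a lost it without 11 of the 20 and Adra1d without 15, with adjusted p up to 0.0794 for Adra1a and 0.0689 for Adra1d. The fold of Adrb1 rests on few counts, as given above. Adrb1 had passed the filter in neither age comparison of single genotypes. Its largest counts were all from 2 months, with at most 20 in any 28-month library, so its kept call is no independent support.

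The alpha-2 genes could not be read as levels, because their counts switched between libraries of the same group. Adra2b, the alpha-2B receptor (ENSMUSG00000058620, chr2:127363208-127367221, plus strand), had counts of 0, 908, 1106, 326 and 0 in the knockout at 28 months and 108, 0, 0, 0 and 0 in Pparafl/fl at 28 months. At 2 months they were 168, 0, 95, 0 and 255 in the knockout and 392, 352, 200, 139 and 0 in Pparafl/fl. Over the 20 libraries 9 held 0 counts and the lowest count above 0 was 95, with nothing in between.

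Adra2c, the alpha-2C receptor (ENSMUSG00000045318, chr5:35278319-35281763, plus strand), had counts of 474, 929, 0, 564 and 0 in the knockout at 28 months and 0 in all 5 libraries of Pparafl/fl at 28 months. At 2 months they were 249, 628, 460, 0 and 0 in the knockout and 0, 0, 164, 152 and 0 in Pparafl/fl. Here 12 libraries held 0 counts and the lowest count above 0 was 152. The pattern differed between these 2 genes, since 6 libraries counted both, 5 counted Adra2b without Adra2c, 2 counted Adra2c without Adra2b and 7 counted neither.

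Adra2a, the alpha-2A receptor, the main presynaptic brake on noradrenaline release (ENSMUSG00000033717, chr19:54044151-54048982, plus strand), was intermediate. It had counts of 406, 1248, 1102, 1 and 252 in the knockout and 226, 116, 334, 15 and 58 in Pparafl/fl at 28 months, and 1, 4, 82, 1198 and 362 in the knockout and 18, 397, 337, 327 and 452 in Pparafl/fl at 2 months. In the knockout, libraries of 1 age ranged from 1 count to over 1000 counts at 28 and at 2 months alike. The log2 fold changes with age were 0.79 ± 1.53 (SE) in the knockout and -0.95 ± 0.85 (SE) in Pparafl/fl, with edgeR adjusted p of 0.807 and 0.545.

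Counts of this kind followed the exon structure across the whole table. Among 187 protein-coding genes whose every transcript has 1 exon and which reached 500 counts in at least 2 libraries, 177 (94.65%) held 0 or 1 count in at least 1 library. For these genes 48.64% of all counts were exactly 0, 1.417% were 1 to 49 and 49.95% were 50 or more. Adra2b and Adra2c are such genes. Of 62 genes that form 1 exon block but have a spliced transcript, as Adra2a has, 23 (37.1%) held 0 or 1 count in a library.

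Of 382 genes coded in 1 exon with further exons outside the coding sequence, as Adrb1 is, 41 (10.73%) did so. Of 12214 genes coded in several exons, the class of Adra1a, Adra1b, Adra1d and Adrb3, it was 176 (1.441%). Per library, 26.74% to 58.29% of the single-exon genes were at 0 or 1 count, so no library was free of it. The counts of Adra2b and Adra2c are therefore given as deposited and no direction is drawn from them, and how single-exon genes came to be counted so was not tested.

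**Figure D4:**
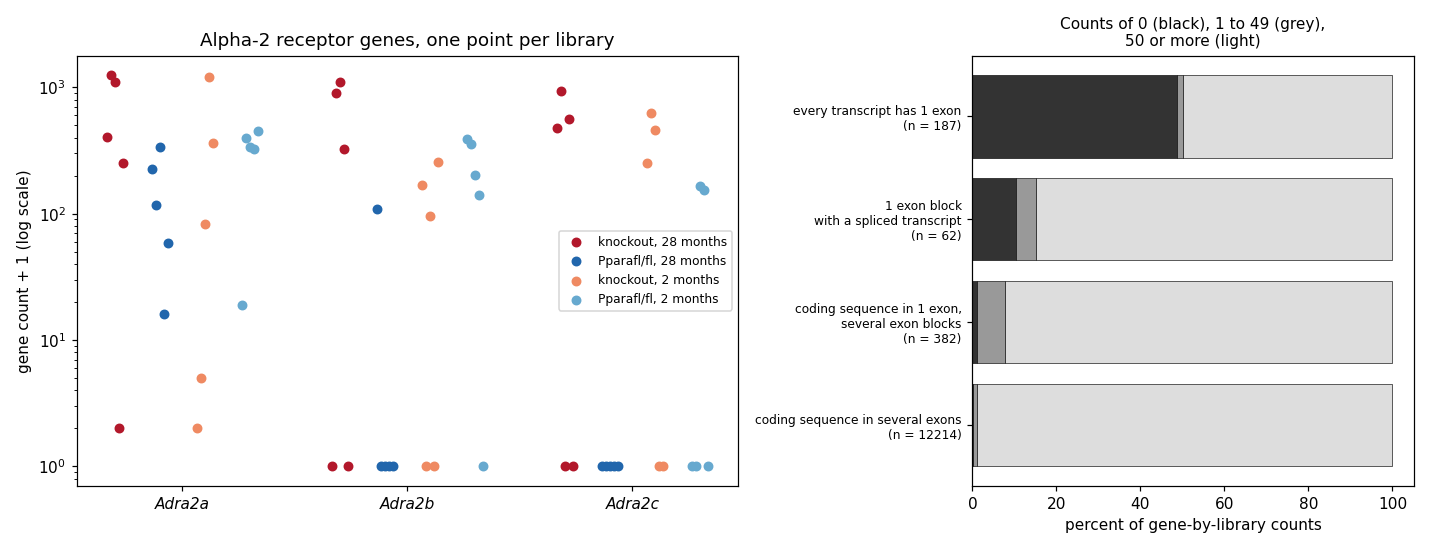
Left, gene count plus 1 (log scale) of Adra2a, Adra2b and Adra2c in each library, coloured by group, with a count of 0 drawn at 1. Right, the percent of gene-by-library counts at 0, at 1 to 49 and at 50 or more for 4 classes of protein-coding genes by exon structure, with 48.64% of counts at 0 for genes whose every transcript has 1 exon and at most 10.48% in the other classes.

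The same counts produce very large folds where a whole group is at 0. Set against a floor of 3 counts over the group, the 0 counts of Adra2c in Pparafl/fl at 28 months made it at least 96.1-fold lower than at 2 months, where 316 counts came from 2 of 5 libraries. They made it at least 537-fold higher in the knockout than in Pparafl/fl at 28 months, where 1967 counts came from 3 of 5 knockout libraries. These bounds describe the counts as deposited and cover counting error only, not the switching between libraries of 1 group. The authors' deposited table gave signed folds of -4968169 with a p of 1.53e-13 for the age comparison and 1739 with a p of 0.000375 for the genotype comparison. Adra2c did not pass the filter in either of them, and without the filter edgeR gave adjusted p of 0.211 and 0.571. For age in the knockout, where both groups held 2 libraries at 0, its log2 fold change was 0.16 ± 1.85 (SE).

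The genotype comparisons called no receptor gene at either age. At 28 months 4 of the 8 passed the filter, where 0.0% of 21468 genes tested were called, 689 genes had an unadjusted p under 0.05 and DESeq2 called 7 genes of the table higher and 13 lower, none of them a receptor gene. At 2 months all 8 passed, where 0.00485% of 20598 genes, which is 1 gene, were called by edgeR, and DESeq2 called 279 higher and 151 lower, again no receptor gene. Adrb3 had a log2 fold change of -0.03 ± 0.75 (SE) at 28 months and of -0.09 ± 0.21 (SE) at 2 months. Adra1a had 0.14 ± 0.26 (SE) at 28 months and 0.28 ± 0.14 (SE) at 2 months, with an edgeR adjusted p of 0.517 at 2 months. The other genes tested had log2 fold changes of 1.84 ± 1.18 (SE) for Adra2a and -0.23 ± 0.63 (SE) for Adra1b at 28 months. At 2 months they lay between -0.89 ± 1.48 (SE) for Adra2b and 2.24 ± 1.98 (SE) for Adra2c. Of the 6 ratios to marker sums between genotypes none passed, with exact permutation p from 0.204 to 0.952 after adjustment. A miss of the threshold does not show that the genotypes were alike.

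Adra1d at 2 months was 1.84, 2.25, 1.00, 2.41 and 1.33 CPM in the knockout, against 0.509, 0.913, 1.31, 1.36 and 1.31 CPM in Pparafl/fl. In the knockout 3 libraries were above every Pparafl/fl library and 2 within their range. The log2 fold change was 0.74 ± 0.35 (SE) with an edgeR adjusted p of 0.511. The test of a difference in age effect between genotypes called none of the 8, where 0.0% of 23624 genes tested were called and 1432 had an unadjusted p under 0.05, Adra2c among them. DESeq2 called 125 genes higher and 144 lower for that difference, with Adra2c among the higher ones.

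The other genes of the pathway were looked at by lists. Of 10 G protein alpha subunits, 1 was called higher with age in the knockout, Gnaq, which carries the alpha-1 signal to phospholipase C, at 86.8 ± 32.1 CPM at 28 months and 42.3 ± 4.36 CPM at 2 months (SD, n = 5 each; log2 fold change 1.05, edgeR adjusted p 0.0436). None was called in Pparafl/fl, where Gnas, which carries the beta signal, was 1009 ± 234 CPM at 28 months and 1198 ± 188 CPM at 2 months (SD, n = 5 each). Of 11 phospholipase C and calcium release genes none was called in either genotype. Itpr1, a calcium release channel, had log2 fold changes of -0.32 in the knockout and -0.45 in Pparafl/fl.

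Adenylyl cyclases make cyclic AMP and lie downstream of the beta receptors. Of 15 genes of cyclases and protein kinase A, 2 were lower and 1 higher with age in the knockout, and 1 lower and 1 higher in Pparafl/fl. Adcy5 was lower in both, at 54.7 ± 12.1 CPM at 28 months and 204 ± 112 CPM at 2 months in the knockout (edgeR adjusted p 0.0204), and at 53.3 ± 19.5 CPM at 28 months and 274 ± 47.3 CPM at 2 months in Pparafl/fl (edgeR adjusted p 0.00222; SD, n = 5 each). Adcy6 was lower in the knockout, with a log2 change of -0.84 and edgeR adjusted p 0.0332. The 2 that were higher were Prkar1b, a regulatory subunit of protein kinase A, in the knockout with a log2 change of 1.31 and adjusted p 0.0469, and Adcy2 in Pparafl/fl with 2.21 and 0.0208.

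Of 15 phosphodiesterases, which break cyclic nucleotides down, none was called in the knockout, and 2 were lower and 1 higher with age in Pparafl/fl. Pde3a and Pde3b were lower, with log2 fold changes of -1.17 and -0.59, and Pde2a was higher with 1.54. None of 12 receptor kinases, arrestins and RGS proteins was called with age in either genotype alone. In the fit averaged over genotypes 1 was called higher and 4 lower, where 10.6% of all genes tested were higher and 9.43% lower. For the other lists that fit called, higher and lower, 1 and 0 G protein subunits and 0 and 1 phospholipase C and calcium release genes. It called 2 and 4 cyclase and kinase genes, 3 and 2 phosphodiesterases, 1 and 2 catecholamine genes and 3 and 5 other vasoactive receptors. Rgs5, a regulator of G protein signalling found in the vessel wall, was 108 ± 134 CPM at 28 months and 723 ± 437 CPM at 2 months in the knockout (SD, n = 5 each), with an edgeR adjusted p of 0.0847, and was among the 4 lower in the averaged fit, with a log2 change of -1.97 and adjusted p 0.0325. Rgs5 is also among the contractile smooth muscle markers listed, and the part of that cell type in its value was not tested.

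For the supply of the transmitter, 14 genes of catecholamine synthesis, transport and breakdown were measured. None was called with age in the knockout. Slc6a2, the noradrenaline transporter of sympathetic nerves, was 712 ± 377 CPM at 28 months and 406 ± 241 CPM at 2 months in the knockout (SD, n = 5 each; edgeR adjusted p 0.312). Dbh, which makes noradrenaline, was 329 ± 120 CPM at 28 months and 240 ± 120 CPM at 2 months there (adjusted p 0.536). Summed markers of Schwann cells and neurons were 1584 to 3045 CPM in the knockout at 28 months and 1266 to 2380 CPM in the knockout at 2 months, and their part in these values was not tested.

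Of 28 receptors for other vasoactive signals, 27 were tested in each age comparison. One was higher in the knockout, Chrm3, the muscarinic M3 receptor, at 5.97 ± 3.10 CPM at 28 months and 0.878 ± 0.646 CPM at 2 months (SD, n = 5 each; edgeR adjusted p 0.0277). In these groups airway epithelium markers summed to 20.3 to 6738 CPM at 28 months and 15.9 to 197 CPM at 2 months. Their part in the Chrm3 value was not tested. In Pparafl/fl 2 were lower, the purinergic channel P2rx1 at 5.58 ± 2.43 CPM at 28 months and 17.8 ± 3.16 CPM at 2 months, and the angiotensin receptor Agtr1b at 0.0384 ± 0.0529 CPM at 28 months and 1.52 ± 0.444 CPM at 2 months (SD, n = 5 each; edgeR adjusted p 0.0155 and 0.0191). No gene of these lists was called in either genotype comparison.

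The genes whose pattern over the 20 libraries was most like that of a receptor gene were found by the root mean square difference of log2 CPM after each gene's own mean was taken off, among 14404 protein-coding genes with several exons. For Adrb3, with an SD of 1.53 over the libraries, they were Thrsp, a lipogenic gene, at 0.50, Mgl2, a macrophage lectin, at 0.52, and Tlcd1 at 0.52, where the median gene was at 1.57. For Adra1a, with an SD of 0.43, the nearest were Cluh at 0.16 and Gnpat at 0.17, where the median gene was at 0.65. For Adra1d, with an SD of 3.05, they were Angpt4 at 1.90, Col3a1, a collagen chain of the vessel wall, at 2.02, and Cavin2, a caveolar coat protein, at 2.04, where the median gene was at 3.02. The nearest gene to Adra1b was at 0.60 beside an SD of 0.93, and to Adra2a, Cav2, at 2.27 beside 3.03. For Adra2b and Adra2c, Prr15 and Gja4 were nearest, at 3.77 and 3.91 beside SDs of 4.69 and 4.86.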

How the data were processed

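RNA was isolated with TRIzol and libraries were made with a KAPA stranded kit, per the labels' protocols, in which 1 extraction note names islets although the tissue label is aorta. The authors deposited raw counts per gene for each library, and in the same tables p-values and signed fold changes of their own test. The submitters' processing notes name featureCounts 1.5.0-p3, HISAT, DESeq 1.8.3 and the build GRCm38, and strand settings are not given in the sources used here. The fold is a signed score in the deposited tables, below 0 where the first group is lower, and it was printed only where named.

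Counts were joined to 55421 genes, of which 55240 (99.7%) matched GENCODE M21. With R 4.3.3 and edgeR 4.0.16, each pair of groups was fitted alone (TMM, filterByExpr, two-sided quasi-likelihood F test), and the difference of age effects in 1 fit of 20 libraries. The standard error of a log2 change was taken as its size over the square root of F. Ratios to marker sums used a two-sided exact permutation test with Benjamini-Hochberg adjustment over 12 ratios, for alpha-1 genes and Adrb3 where they had at least 10 counts in each of the 20 libraries. Counts were simulated with known changes to test the scripts. Alternatives were DESeq2 1.42.0, its size factors, no filter, only genes averaging 50 counts or more, 1 fit of 20 libraries, single markers and each library left out. The receptor genes, gene lists and markers were chosen with earlier results of these data known. Beyond all 8 receptor genes, the genes named from a list were up to 3 called with the smallest p, or the 2 most counted where none was called; of these 2, some are not described. Library totals of 50046288 to 79385413 limit counting error only, and p-values measure the spread between mice as labelled. The labels give no batch, and none was fitted. Results for 2 items withheld for evaluation were left out of the text.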

Additional observations from a re-analysis of the deposited data

Results flagged for a closer look

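In each group of 5 libraries, the highest or lowest CPM of a receptor gene was checked for a gap to its neighbour above Dixon's 95% critical value. Chance alone flags about 1 in 20 groups, and 32 groups were checked, so the 3 found are near that rate.

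Adra1d stood out in Pparafl/fl replicate 3 at 28 months, with 2.27 CPM (158 counts) beside 0 to 0.522 CPM in the other 4 libraries. The same library had the lowest Adrb3 level of all 20, 6.40 CPM, and a white adipocyte marker sum of 17322 CPM, the lowest of its group. Replicate 4 of that group had nearly the same sum, 17523 CPM, and 0 Adra1d counts. The part of tissue composition in the Adra1d value was not tested.

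Adra2a stood out in Pparafl/fl replicate 1 at 2 months, with 0.248 CPM (18 counts) beside 5.61 to 6.75 CPM in the other 4 libraries. Adra2b stood out in Pparafl/fl replicate 1 at 28 months, where it had 2.27 CPM (108 counts) and the other 4 libraries had 0 counts. Both genes form 1 exon block, the classes in which counts at or near 0 were common in this table.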

How the results depend on the processing

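For age in the knockout, where 1 receptor gene was called, DESeq2 called 2 (Adra1d and Adrb3), and no filter, 1 fit of 20 libraries and leaving out each library gave 0, with Adra1d at an adjusted p of 0.0859 without the filter and 0.0569 in the 1 fit. For age in Pparafl/fl, with 0 called, the 1 fit called 1 (Adrb1) and leaving out single libraries gave 0 to 1 (Adra2b, without 28-month replicate 1). DESeq2 called 1 gene, Adra2c, for the difference of age effects and 1, again Adra2c, for the genotype effect averaged over ages, where edgeR called 0 of 8, with 1557 genes of the table at an unadjusted p under 0.05. The averaged age effect called 4, but 5 with DESeq2 (Adra2c added), 3 with a mean of at least 50 counts (Adrb1 not among them), 2 without the filter and 2 to 4 without single libraries. The causes were not tested.

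Against single markers, the Adra1a ratio in the aged knockout had log2 differences from the young knockout of 1.76 (Myh11), 2.49 (Tagln) and 2.77 (Acta2), each with an unadjusted exact permutation p under 0.05, and 0.91 to 1.44 without single libraries. For genotype at 28 months it changed sign, with -0.31 (Myh11) and -0.13 (Tagln) against 0.81 for the sum. By unadjusted exact permutation p, the Adrb3 ratio for age missed 0.05 in the knockout with Plin1 (-0.30) and Fabp4 (-0.53). In Pparafl/fl it missed 0.05 with Adipoq (-1.39) and Fabp4 (-1.09). The ratio to the sum in Pparafl/fl had an unadjusted exact permutation p of 0.0238 and missed the threshold after adjustment, at 0.0714. It was -1.52 to -0.71 there without single libraries. Between genotypes at 2 months it was 1.03 with Adipoq, against -0.17 for the sum. With a minimum of 100 counts, the share of genes at 0 or 1 count in a library was 50.56% for 1 exon block with a spliced transcript, 16.91% for 1 coding exon and 4.326% for several.

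Sign changes without single libraries occurred in values that were never called. The log2 ranges were -0.57 to 0.75 for Adra2c with age in the knockout. Between genotypes at 28 months they were -0.33 to 0.25 for Adrb3 and -0.59 to 0.031 for Adra1b. At 2 months they were -0.19 to 0.10 for Adrb3, -1.45 to 0.42 for Adra2a, -0.0055 to 1.23 for Adrb1 and -0.33 to 0.042 for Adra1b. For the difference of age effects they were -0.23 to 0.37 for Adrb3, -0.25 to 0.0024 for Adra1a and -0.44 to 0.19 for Adra1b. They were -0.32 to 0.65 for Adra2a with age averaged over genotypes and -0.23 to 0.065 for Adrb3 with genotype averaged over ages. The ratios between genotypes at 28 months were -0.48 to 0.41 for Adra1b and -0.41 to 0.41 for Adrb3. No paired analysis was possible because the sample titles share no replicate numbers between groups.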
